A study of Mus musculus with 4 samples.

Results

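The genes described here are 30 genes of cholesterol and lipid metabolism, read from single-cell RNA-seq of CD45+ cells of the mouse nasal mucosa. They were taken by gene symbol from the 27998 genes of the deposited matrices, and all 30 were found. By role they are 15 enzymes of cholesterol synthesis, 3 regulators that sense sterols, 4 genes of fatty acid synthesis, 4 genes of cholesterol efflux and 4 genes of cholesterol storage and transport. All 30 had enough molecules in macrophages to be compared, and none was dropped there.

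The study examined allergic rhinitis, an allergic inflammation of the nose, in C57BL/6 mice of 8 weeks. In the OVA groups, mice were sensitised to ovalbumin (OVA) and then challenged with it through the nose. There were 4 libraries, and each was the only library of its group. Vehicle mice received the solvent without allergen, Vehicle-OVA mice the solvent and OVA, Ribavirin mice the drug without allergen, and Ribavirin-OVA mice both. Ribavirin is an antiviral nucleoside analogue, and its dose and schedule are not given in the sources used here. In all 4 groups the nasal mucosa was digested and CD45+ leukocytes were enriched, which the sources describe once as magnetic and once as fluorescence-activated sorting. The number of mice behind each library is not stated. With 1 library per group no difference between groups could be tested, and each interval below covers counting error only.

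Cells make cholesterol from acetyl-CoA through the mevalonate pathway, which leads over isoprenoids and squalene to lanosterol and from there to cholesterol. When sterols in the endoplasmic reticulum are scarce, the SREBP transcription factors are released from the retention protein INSIG and switch on the genes of this pathway. When oxysterols accumulate, the nuclear receptor LXR switches on ABCA1, ABCG1 and APOE, which carry cholesterol out of the cell. Macrophages take up cholesterol with the dying cells they engulf, and for this reason they are known for strong expression of the efflux genes.

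For 23 of the 30 genes an upstream sequence was found in RefSeq, which gave 30 promoter windows of 300 bases, from 250 bases before to 50 bases after a transcription start (build GRCm38.p6). Each window was searched on both strands for letters of factors of this pathway. A sterol regulatory element, TCACNCCAC, was in 1 window of the members, that of Hmgcs1, and in 1.24% of all 32851 promoters. The E-box CACGTG was in 5 of the 30 windows of members (Hsd17b7, Sc5d, Dhcr7, Insig1 and Abca1) and in 7.15% of all promoters. The box CCAAT was in 20 of the 30 windows of members, those of 19 members, and in 37.4% of all promoters. A strict DR4 element, the site of LXR, was in no window of a member and in 5 of all promoters. A relaxed form, GGTNA and GGTCA separated by 5 bases, was added after that, and it was in windows of Srebf1, Fasn and Abca1 and in 0.207% of all promoters. The sterol regulatory element overlapped an E-box in 2 of all promoters and a CCAAT box in 2, and the relaxed DR4 overlapped a CCAAT box in 7. A match is a description of letters and not a shown binding site. The 4 stretches below run 5′ to 3′ from 250 to 51 bases before the start, and they are shown because Hmgcs1 and Insig1 were higher with OVA, Ebp was lower although it belongs to the same pathway as Hmgcs1, and Abca1 differed with OVA in several cell classes. Capitals mark a match, on either strand, to any of the motifs. They lie at chr13:119690101-119690300 (Hmgcs1, plus strand), chr5:28071162-28071361 (Insig1, plus strand), chrX:8193563-8193762 (Ebp, minus strand) and chr4:53159946-53160145 (Abca1, minus strand).
Hmgcs1: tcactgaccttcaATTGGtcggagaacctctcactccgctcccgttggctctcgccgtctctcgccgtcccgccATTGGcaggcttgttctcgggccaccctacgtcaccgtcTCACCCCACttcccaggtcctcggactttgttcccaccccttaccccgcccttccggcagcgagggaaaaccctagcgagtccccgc
Insig1: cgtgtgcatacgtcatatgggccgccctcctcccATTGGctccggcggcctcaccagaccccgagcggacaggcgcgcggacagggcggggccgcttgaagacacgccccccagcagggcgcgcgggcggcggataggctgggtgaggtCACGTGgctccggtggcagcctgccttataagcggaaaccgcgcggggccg
Ebp: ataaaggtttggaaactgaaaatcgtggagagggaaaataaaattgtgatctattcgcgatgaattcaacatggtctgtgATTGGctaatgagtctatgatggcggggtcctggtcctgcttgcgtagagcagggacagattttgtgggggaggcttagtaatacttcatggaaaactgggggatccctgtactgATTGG
Abca1: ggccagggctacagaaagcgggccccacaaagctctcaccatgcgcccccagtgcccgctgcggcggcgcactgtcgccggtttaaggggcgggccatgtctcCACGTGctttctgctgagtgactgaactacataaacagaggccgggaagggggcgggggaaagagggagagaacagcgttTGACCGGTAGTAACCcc

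The matrices held 10311 to 28277 cell barcodes and 91742940 to 171873110 UMIs (molecules counted by their unique identifier) per library. The Ribavirin library had no barcode under 1782 UMIs, whereas the other libraries began at 500 or 501. After filters on quality and doublets, 24382 cells remained in Vehicle, 17227 in Vehicle-OVA, 19634 in Ribavirin and 8771 in Ribavirin-OVA. Classes were assigned to cells from the UMIs of marker panels that hold none of the 30 genes, with thresholds set after the data were seen. Macrophages numbered 3471, 1827, 2543 and 1536 in the same order, and their median depth was 10012, 9404, 10306 and 8703 UMIs. All 8 macrophage markers were detected in them, and the panel summed to 12533 to 16824 CPM (UMIs of the gene or panel scaled to the same total, 1e6, in each class and library). The cells were selected by this same panel, so these values are no separate support for the class. Neutrophil markers summed to 492, 1479, 671 and 572 CPM in these macrophages and endothelial markers to 12.8, 98.4, 18.9 and 79.7 CPM, so both differed between the libraries, and their part in the results was not tested.

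In macrophages, cholesterol synthesis did not differ as a block between mice with and without OVA. Early enzymes (Hmgcs1, Mvd, Idi1), Fdft1 and Cyp51 were higher with OVA under vehicle and under ribavirin, and Fdps and Ebp were lower. Mvk, Sqle, Lss, Nsdhl and Hsd17b7 stayed within 1.5-fold of the median gene in both pairs. Of the efflux genes Abca1, Abcg1 and Nr1h3 had higher CPM with OVA, whereas Apoe was much lower. Abcg1 stayed within 1.5-fold of the median gene in both pairs, and Nr1h3 under ribavirin. The largest ratio of the 30 genes was that of Scd2, a desaturase of fatty acid synthesis. Levels are given below as CPM of summed macrophage UMIs, in the order Vehicle, Vehicle-OVA, Ribavirin and Ribavirin-OVA.

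Hmgcs1 encodes the synthase that forms HMG-CoA early in the pathway, and it was at 38.5, 92.3, 28.2 and 84.6 CPM. Its ratio of OVA to no OVA was 2.40 (95% interval 2.23 to 2.58) under vehicle and 3.00 (2.74 to 3.28) under ribavirin. Both OVA libraries thus lay above both libraries without OVA. Mvk, mevalonate kinase, was at 11.6, 11.6, 11.0 and 12.3 CPM, with ratios of 1.00 (0.846 to 1.18) and 1.12 (0.929 to 1.34). The decarboxylase gene Mvd, which acts later in the same branch, was at 14.6, 27.3, 15.1 and 29.2 CPM. Idi1, the isomerase that supplies the isoprenoid building blocks, was at 25.4, 53.8, 20.6 and 44.9 CPM. Mvd and Idi1 were thus higher in both OVA libraries, and Mvk was level across the 4. Fdps joins these building blocks to farnesyl pyrophosphate and was at 45.6, 33.9, 38.9 and 29.0 CPM, with ratios of 0.742 (0.676 to 0.814) and 0.745 (0.667 to 0.832). It was the only mevalonate enzyme among the members whose OVA libraries both lay below the libraries without OVA.

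Fdft1, squalene synthase and the first enzyme committed to sterols, was at 13.2, 24.0, 10.4 and 21.0 CPM. Squalene epoxidase, Sqle, was at 13.3, 20.1, 10.6 and 16.1 CPM. Lss, which closes the rings of lanosterol, was at 4.30, 4.38, 3.73 and 4.91 CPM from 80 to 149 UMIs. The next steps remove methyl groups from lanosterol. Of their enzymes among the members, Cyp51 was higher with OVA past 1.5-fold of the median gene in both pairs, and Msmo1 under ribavirin only. Cyp51, the lanosterol demethylase, was at 40.4, 78.6, 33.6 and 76.0 CPM. Msmo1, a sterol methyl oxidase, was at 39.5, 67.2, 25.8 and 61.3 CPM. Nsdhl and Hsd17b7 work at the same methyl groups. Nsdhl was at 10.7, 11.4, 9.29 and 12.7 CPM, and Hsd17b7 at 6.58, 9.93, 4.96 and 8.41 CPM. Among the last steps, the sterol isomerase Ebp was at 71.5, 42.8, 62.9 and 45.7 CPM, with ratios of 0.598 (0.552 to 0.648) and 0.726 (0.665 to 0.791). Ebp was therefore lower in both OVA libraries while Sc5d and Dhcr7, which act after it, were not. Sc5d was at 16.5, 26.2, 13.2 and 24.9 CPM, and Dhcr7, which makes cholesterol from its direct precursor, at 8.77, 11.99, 9.96 and 22.0 CPM.

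Insig1 retains the SREBP complex and is itself a target of SREBP, and it was at 45.1, 85.7, 41.9 and 79.2 CPM. Srebf2, the SREBP gene mainly of cholesterol synthesis, was at 33.2, 49.3, 33.8 and 49.96 CPM. Srebf1, the SREBP gene mainly of fatty acid synthesis and a target of LXR, was at 22.4, 38.9, 22.6 and 34.2 CPM. All 3 regulators had higher CPM in both OVA libraries, but Srebf1 and Srebf2 stayed within 1.5-fold of the median gene in both pairs. Fatty acid synthesis was divided. Scd2, a stearoyl-CoA desaturase, was at 56.5, 227, 53.9 and 230.2 CPM, with ratios of 4.02 (3.81 to 4.25) and 4.27 (4.02 to 4.54). Acly, which supplies cytosolic acetyl-CoA to both pathways, was at 53.5, 107, 48.0 and 107 CPM. The carboxylase gene Acaca, at 10.7, 13.6, 10.1 and 13.5 CPM, and the synthase gene Fasn, at 13.4, 14.2, 12.05 and 15.2 CPM, differed much less.

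Abca1, which loads cholesterol onto lipid-poor apolipoprotein A-I, was at 322, 744, 349.8 and 764 CPM. Its ratios were 2.31 (2.26 to 2.37) under vehicle and 2.19 (2.13 to 2.25) under ribavirin. Abcg1, which exports cholesterol to mature HDL, was at 98.1, 152, 105 and 182 CPM. Nr1h3 encodes LXR alpha, the receptor that controls both transporters, and was at 50.8, 106, 47.7 and 84.4 CPM. These 3 genes were higher in both OVA libraries. Apoe, the apolipoprotein that macrophages secrete as an acceptor of cholesterol, was at 35011, 10456, 34970 and 12992 CPM. Its ratios of 0.299 (0.297 to 0.300) and 0.372 (0.370 to 0.373) were the smallest of the 30 genes. Among the genes of storage and transport, Soat1, which esterifies cholesterol for storage in droplets, was at 181, 269.9, 165 and 312 CPM. Npc1 moves cholesterol out of lysosomes together with Npc2, and it was at 88.3, 159.7, 86.8 and 178 CPM. Npc2 itself was at 1237, 1104, 1172 and 1224 CPM and hardly differed. Stard4, a sterol carrier of the cytosol and a target of SREBP2, was at 12.9, 27.0, 11.2 and 26.9 CPM.

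**Figure D1:**
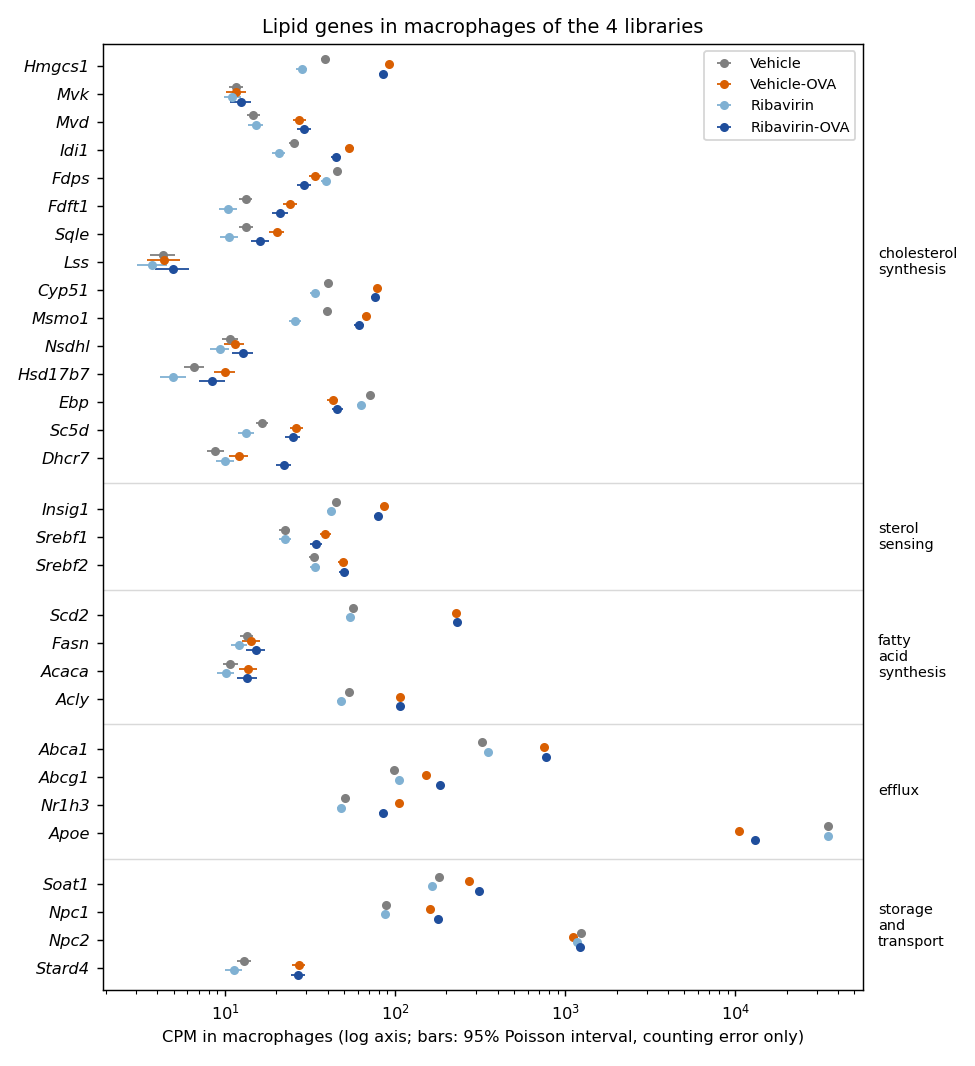
Levels of the 30 genes in macrophages, as CPM on a log axis, with a point for each of the 4 libraries and bars for the exact 95% Poisson interval, grouped by role. Scd2 and Abca1 sit apart from their levels without OVA in both OVA libraries on the higher side, and Apoe and Ebp on the lower side.

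Ratios were also set against the other genes, since the median gene itself had shifted with OVA by 0.22 (vehicle) and 0.23 (ribavirin) on the log2 scale. Genes of ribosomal proteins lay at −0.90 and −0.83, and the ratios correlated with transcript length (Spearman's rho across genes 0.34 and 0.33), and the part of these in the results was not tested. A gene counts below as higher or lower when its log2 ratio of CPM + 1, less that of the median gene, passed 1.5-fold. Under vehicle 12 of the 30 genes were higher and 3 lower, against 15.1% of all genes tested that were higher and 17.5% that were lower. Under ribavirin 15 were higher and 3 lower, against 13.1% and 16% of all genes. With no centring on the median gene the latter counts were 18 and 1. The 3 lower genes were Fdps, Ebp and Apoe in both pairs. The call of Fdps was lost in both pairs with no centring, with classes from clusters, with a pseudocount of 5 CPM and with centring by transcript length, where it was at −0.35 and −0.39, and that of Ebp under ribavirin with no centring, at −0.45. Relative to the median gene, Fdps was at −0.64 and −0.65, Ebp at −0.94 and −0.69 and Apoe at −1.96 and −1.66.

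By role, 5 of the 15 synthesis enzymes were higher under vehicle (Hmgcs1, Mvd, Idi1, Fdft1 and Cyp51) and 8 under ribavirin, where Msmo1, Sc5d and Dhcr7 joined them. The median of the 15 relative to the median gene was 0.35 under vehicle and 0.63 under ribavirin. Of the 4 efflux genes, Abca1 and Nr1h3 passed the fold under vehicle, at 0.99 and 0.83. Under ribavirin Abca1 passed it at 0.89, with Nr1h3 at 0.57 and Abcg1 at 0.55 just inside. The median of the efflux genes was 0.62 and 0.56, and the synthesis median less the efflux median was −0.27 under vehicle and 0.07 under ribavirin. The value under ribavirin turned to −0.065 with centring by transcript length and to −0.048 with a pseudocount of 5 CPM, so no direction of synthesis against efflux was read from macrophages as a whole. Of the other members, Scd2, Acly, Insig1, Npc1 and Stard4 passed the fold in both pairs and Soat1 under ribavirin, at 0.68.

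**Figure D2:**
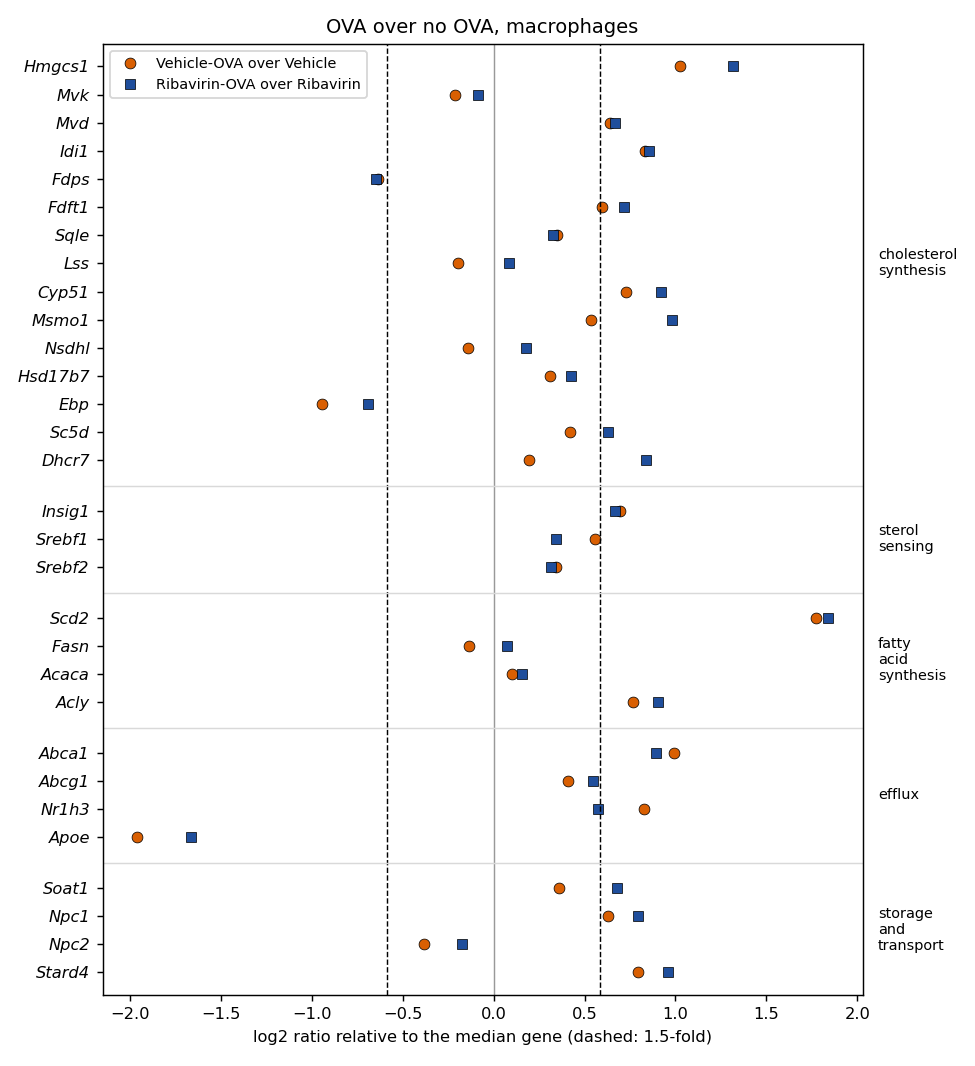
Ratio of OVA to no OVA in macrophages for the 30 genes, as log2 relative to the median gene, under vehicle (circles) and under ribavirin (squares), with dashed lines at 1.5-fold. Scd2 lies highest, at 1.77 and 1.84, and Apoe lowest, at −1.96 and −1.66.

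Few of these genes differed past 1.5-fold between ribavirin and vehicle. Without OVA no member was higher and 1 was lower, against 1.76% and 0.433% of all genes tested. The lower gene was Msmo1, at 39.5 CPM in Vehicle and 25.8 in Ribavirin, a ratio of 0.653 (0.595 to 0.716) and −0.59 relative to the median gene, which is next to the threshold. The synthesis median was −0.25, and 2 of the 15 enzymes had a value above 0. With OVA, 1 member was higher and none lower, against 3.44% and 2.8% of all genes. This was Dhcr7, at 11.99 CPM in Vehicle-OVA and 22.0 in Ribavirin-OVA, a ratio of 1.84 (1.55 to 2.18). The synthesis median was −0.07 here. The comparisons of OVA and of ribavirin use the same 4 libraries, so each library enters both.

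Macrophages were further divided into states by marker genes outside the 30. Cells with the Arg1/Ccl24 program, 2 genes known from alternatively activated macrophages, were 59.2% of macrophages in Vehicle-OVA (1082 cells) and in Ribavirin-OVA (910 cells), against 20 of 2543 in Ribavirin and 0 of 3471 in Vehicle, which allows a share of up to 0.0864%. Between libraries this state and OVA cannot be told apart, so the state was set against the other macrophages of its own library. In Vehicle-OVA the median of the synthesis enzymes in the state over the other macrophages was 0.48 relative to the median gene, and that of the efflux genes −0.41. In Ribavirin-OVA these medians were 0.25 and −0.27. The synthesis median less the efflux median was therefore 0.89 and 0.51, in the direction of synthesis in both libraries. Against the Cxcl13 state of Vehicle-OVA alone (66 cells, down to 3 UMIs for Lss) the medians were −0.06 and 0.09. The difference was then −0.16, so the Arg1/Ccl24 state did not lean to synthesis relative to those cells.

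In Vehicle-OVA, 6 members were higher in the Arg1/Ccl24 state and 2 lower, against 4.32% and 7.95% of all genes. The lower count is thus near the background. The 6 were Hmgcs1, Mvd, Idi1, Sqle, Cyp51 and Scd2. Hmgcs1 was at 107 CPM in the state and 71.2 in the other macrophages, Cyp51 at 97.4 and 51.9, and Scd2 at 292 and 134.6. The 2 lower genes were efflux genes. Apoe was at 6669 CPM in the state and 15855 outside it, and Abcg1 at 118 and 199.9, a ratio of 0.591 (0.548 to 0.636). Abca1, at 772 and 705 CPM, and Nr1h3, at 102 and 111, were close to level.

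In Ribavirin-OVA, 1 member (Scd2) was higher in the state and 2 (Apoe and Fasn) were lower, against 4.37% and 7% of all genes. Both counts are near the background. Scd2 was at 272 CPM in the state and 172 outside it, a ratio of 1.59 (1.48 to 1.70), where Vehicle-OVA had 2.17 (2.02 to 2.33). Apoe was at 9305 and 18097 CPM, and Fasn at 12.05 and 19.5. Hmgcs1, Cyp51 and Abcg1 lay on the same side as in Vehicle-OVA, within 1.5-fold. Hmgcs1 was at 92.9 and 73.2 CPM, Cyp51 at 87.0 and 60.9, and Abcg1 at 168 and 201. Median depth was 9141 UMIs in the state cells of Vehicle-OVA and 8439.5 in those of Ribavirin-OVA.

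**Figure D3:**
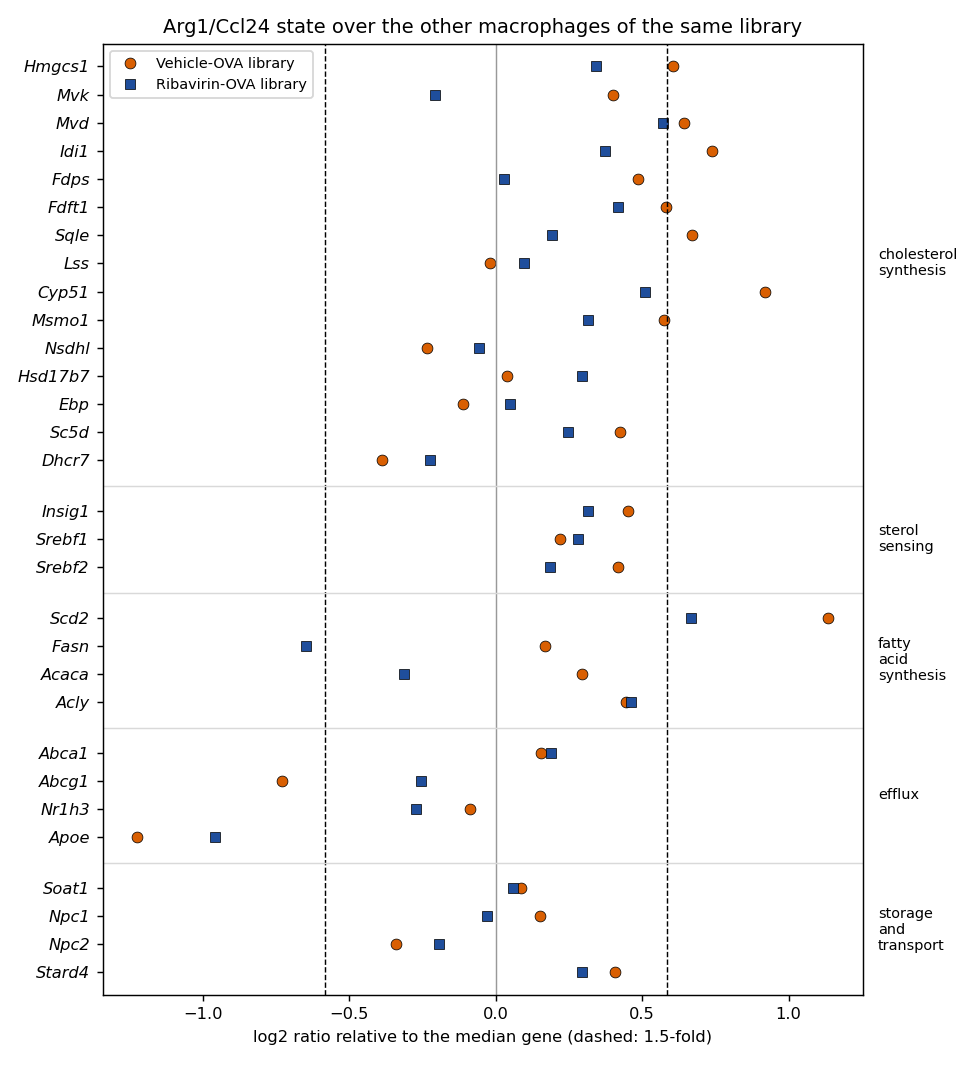
Ratio of the Arg1/Ccl24 state to the other macrophages of the same library for the 30 genes, as log2 relative to the median gene, in Vehicle-OVA (circles) and Ribavirin-OVA (squares), with dashed lines at 1.5-fold. Scd2 lies past the line on the higher side and Apoe on the lower side in both libraries, and Hmgcs1, Cyp51 and Idi1 pass it in Vehicle-OVA.

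Some members also differed with OVA outside the Arg1/Ccl24 state. Among macrophages outside it, 5 members were higher with OVA and 3 lower under vehicle. Of all genes 11.8% and 16.4% were, so these counts are near the background. Under ribavirin 11 were higher and 3 lower, against 10.3% and 15.7%, so only the higher count lay above the background. The synthesis median was smaller than over all macrophages, at 0.12 and 0.28, while the efflux median was 0.79 and 0.67. Scd2 was at 56.5 CPM in Vehicle and 134.6 in Vehicle-OVA, and at 53.4 in Ribavirin and 172 in Ribavirin-OVA. Abcg1, which was low in the Arg1/Ccl24 state, was at 98.1 and 199.9 CPM under vehicle here and at 105 and 201 under ribavirin. Apoe was again lower, at 35011 and 15855 CPM and at 35070 and 18097 CPM.

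In the smaller states outside the Arg1/Ccl24 program many synthesis enzymes had too few UMIs to be compared. Of the 15, 6 had at least 50 UMIs over both libraries in Cxcl13 cells (169 in Vehicle and 66 in Vehicle-OVA), and 6 (vehicle) and 7 (ribavirin) in P2ry12 cells, so no median over them is given. Hmgcs1 in Cxcl13 cells was at 20.4 CPM in Vehicle and 123 in Vehicle-OVA, a ratio of 6.01 (3.98 to 9.33), and Scd2 at 25.7 and 121 CPM. Apoe was at 42563 CPM in Vehicle and 9169 in Vehicle-OVA in the same cells. P2ry12 cells carry a gene known from microglia and other resident macrophages. Hmgcs1 was at 23.8 and 34.4 CPM in P2ry12 cells under vehicle, a ratio of 1.45 (0.87 to 2.31), and at 20.6 and 31.1 under ribavirin, a ratio of 1.51 (0.93 to 2.40), and both intervals include 1. Abcg1 was at 147 and 393 CPM and at 161 and 321 CPM, higher with OVA in both pairs.

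Apoe stayed higher in P2ry12 cells than in any other named state of the same library, at 56021, 32095, 58627 and 34532 CPM. Nr1h3 was lowest there, at 9.99, 25.4, 8.93 and 26.7 CPM, and highest in Ctsk cells, named for an osteoclast protease, at 124, 173, 110 and 149 CPM, though Cxcl9 cells of Ribavirin-OVA, named for an interferon-induced chemokine, had a like level of 146. These state comparisons with OVA rest on 62 to 138 cells in the OVA libraries, and Cxcl13 cells of Ribavirin-OVA (48) were not compared.

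Between macrophages and T cells the efflux genes differed far more than the synthesis genes. Relative to the median gene, the synthesis median of macrophages over T cells was 0.06 in Vehicle, 0.61 in Vehicle-OVA, 0.05 in Ribavirin and 0.63 in Ribavirin-OVA, and with no centring it was −0.24 in Vehicle and −0.28 in Ribavirin. The synthesis median less the efflux median was −5.18, −4.62, −5.44 and −4.85. Nr1h3 in T cells was at only 1.26%, 1.74%, 0.918% and 1.56% of its macrophage level. With a pseudocount of 5 CPM the differences were −4.07, −3.98, −4.25 and −4.09, so their size depends on the pseudocount. Macrophages held 88.2%, 81.7%, 86.4% and 85.6% of all Apoe UMIs of kept cells, in the same order of libraries. Their share of Nr1h3 UMIs was 74.5%, 66.6%, 67.9% and 73.3%, lower with OVA under vehicle and higher under ribavirin. Their share of Hmgcs1 UMIs was 26.7%, 41.0%, 19.3% and 30.5%. These shares also follow the number of macrophages and their RNA content.

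**Figure D4:**
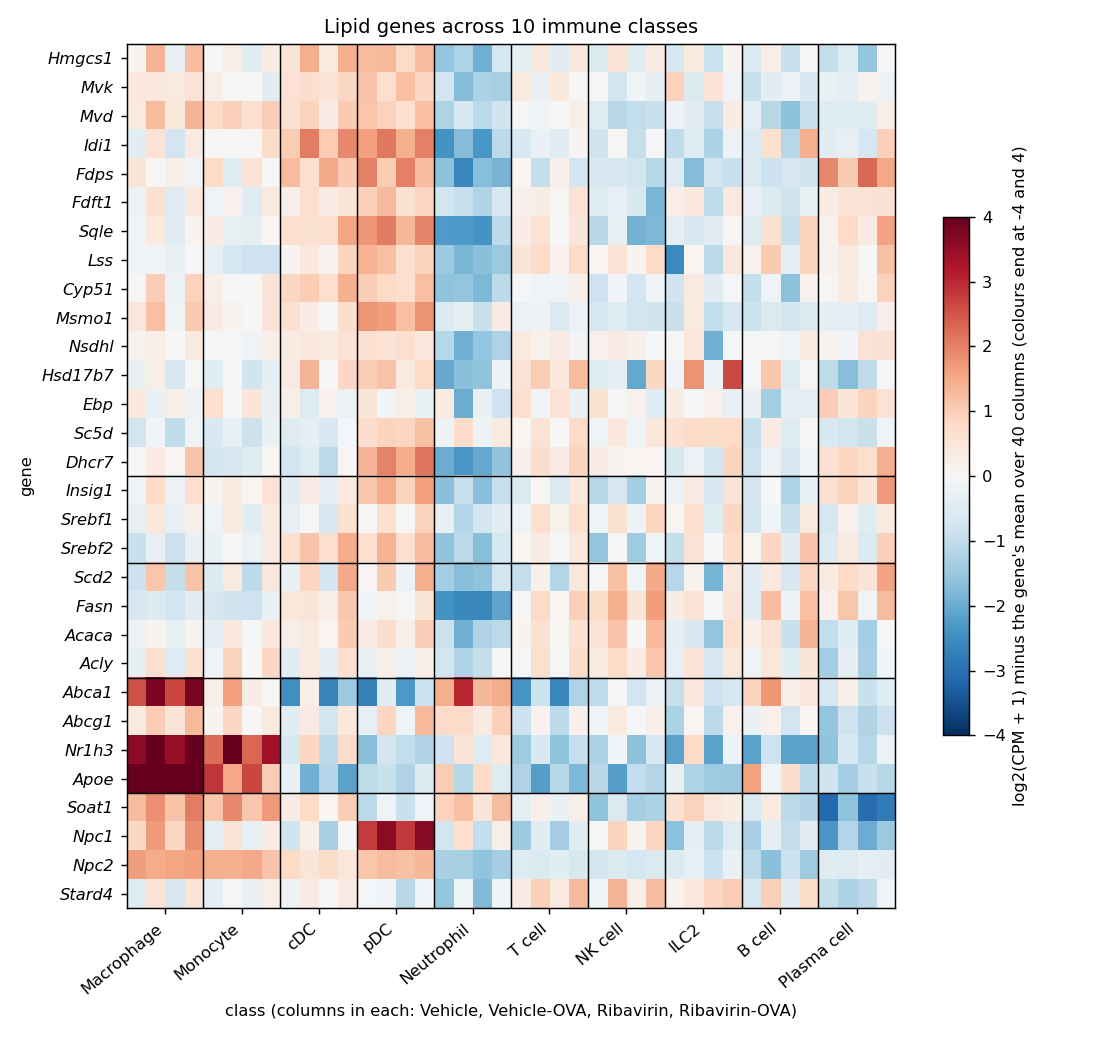
Levels of the 30 genes in 10 immune cell classes and the 4 libraries, as log2 of CPM + 1 less the mean of the gene over the 40 columns (red above it, blue below it, colours ending at −4 and 4). Apoe and Nr1h3 are red in macrophages and, more weakly, in monocytes, Npc1 in plasmacytoid dendritic cells, and most synthesis genes are blue in neutrophils.

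Abcg1 was the efflux gene least bound to macrophages. In Vehicle its level in T cells was 40.8% of that in macrophages, and in neutrophils 129%. For Apoe these values were 0.742% and 3.51%. Complement C1q transcripts, which T cells and neutrophils are not known to make, stood at 0.558% and 1.07% of their macrophage level in the same cells. The Apoe level in T cells, as a percentage of that in macrophages, is thus close to that of C1q. Whether free RNA of macrophages gives it was not tested. No expression was read from it or from its lower value in T cells with OVA.

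Abca1 differed with OVA in a class-dependent way. In neutrophils it was at 147 CPM in Vehicle and 451 in Vehicle-OVA, a ratio of 3.07 (2.95 to 3.20). Under ribavirin it was at 138 and 155 CPM, a ratio of 1.13 (1.06 to 1.20). In monocytes Abca1 was at 63.6 and 173 CPM under vehicle and at 66.6 and 55.4 CPM under ribavirin, so the pairs lay on opposite sides. In classical dendritic cells it was at 9.03 and 64.8 CPM and at 7.72 and 19.0 CPM, and in plasmacytoid dendritic cells at 7.54 and 39.6 CPM and at 10.2 and 29.6 CPM. In T cells it was at 9.75 and 29.3 CPM and at 8.29 and 22.7 CPM. These were 3.03% and 3.94% of the macrophage level under vehicle, and 2.37% and 2.97% under ribavirin. The part of free RNA of other cells in the low levels of dendritic cells and T cells was not tested. Of all Abca1 UMIs, macrophages held 64.4% in Vehicle, 38.5% in Vehicle-OVA, 58.5% in Ribavirin and 71.2% in Ribavirin-OVA. Neutrophils held 44.6% in Vehicle-OVA. Vehicle-OVA had 10488 neutrophils among its cells, against 2492 to 6927 in the other libraries.

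In neutrophils, relative to the median gene, 14 of 29 members tested were higher with OVA under vehicle and 2 lower. Of all genes 26.1% and 23% were. Under ribavirin 11 of 29 were higher and 2 lower, against 11.4% and 17.2%. The lower genes were Ebp and Apoe in both pairs. Ebp was at 69.1 and 12.7 CPM under vehicle and at 44.2 and 29.2 CPM under ribavirin. Stard4 was at 5.56 and 16.1 CPM and at 4.66 and 16.2 CPM, higher in both OVA libraries. The median gene of neutrophils lay at −0.59 under vehicle and at 0.27 under ribavirin, while it lay between 0.22 and 0.47 in each of the other 9 classes compared.

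In T cells 4 of 29 members were higher with OVA and 5 lower under vehicle, against 14% and 21.2% of all genes, which is near the background. Under ribavirin the counts were 4 and 5, against 11.8% and 19.7%. Scd2, Abca1 and Abcg1 were higher in both pairs, and Mvk, Fdps, Nsdhl, Ebp and Apoe lower. Apoe is counted among these 5, but no expression in T cells was read from its value, as stated above. In T cells the ratios correlated with transcript length more than in macrophages (Spearman's rho across genes 0.53 and 0.54). Genes of ribosomal proteins lay at −0.89 and −0.91 there, and the part of these was not tested. Scd2 was at 53.0 and 121 CPM under vehicle and at 45.4 and 143 CPM under ribavirin. Fdps was at 34.4 and 16.3 CPM and at 37.4 and 18.9 CPM. The synthesis median was −0.28 under vehicle and 0.11 under ribavirin, below that of macrophages in each pair.

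In monocytes, which are blood-derived precursors of macrophages, 4 of 30 members were higher and 6 lower under vehicle. Of all genes 13.5% and 19.3% were, so both counts are at the background. Under ribavirin 2 of 29 were higher and 6 lower, against 13.1% and 18.1%, so the higher count lay under the background and the lower count near it. Cyp51, Sqle and Lss were among the 6 lower genes under vehicle, and the synthesis median was −0.33 and 0.11. Nr1h3 was at 19.7 and 67.6 CPM under vehicle and at 20.7 and 44.7 CPM under ribavirin. Apoe was at 4439 and 1793 CPM and at 3953 and 1232 CPM, lower with OVA as in macrophages.

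Ebp and Fdps, the synthesis enzymes that were lower in macrophages, also lay below the median gene with OVA in each other class where they were tested (9 for Ebp and 8 for Fdps), with ranges of −1.77 to −0.65 for Ebp and −1.63 to −0.27 for Fdps under vehicle and of −1.24 to −0.31 and −1.33 to −0.43 under ribavirin. Their longest transcripts have 1743 (Ebp) and 1382 bases (Fdps). Ratios with OVA correlated with transcript length in every class compared (Spearman's rho 0.28 to 0.54), and the part of length was not tested. Relative to the median gene Ebp was at −1.17 and −1.24 in T cells and at −1.02 and −1.13 in monocytes. Fdps was at −1.43 and −1.33 in T cells and at −1.63 and −0.90 in monocytes. Plasma cells, which secrete antibody, had Fdps at 128 and 68.1 CPM under vehicle and at 163 and 98.3 CPM under ribavirin. Plasmacytoid dendritic cells had it at 136 and 67.3 CPM and at 134 and 79.0 CPM.

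Scd2 lay above the median gene with OVA in all 9 other classes tested, at 0.07 to 0.92 under vehicle and 0.59 to 1.89 under ribavirin. In natural killer cells it was at 102 and 234 CPM under vehicle and at 91.6 and 302 CPM under ribavirin, and in classical dendritic cells at 85.7 and 189 CPM and at 61.1 and 302 CPM. Plasmacytoid dendritic cells stood out for Npc1, at 344 and 608 CPM and at 352 and 623 CPM. Idi1 in the same cells was at 113 and 157 CPM and at 98.2 and 146 CPM.

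Further genes of these pathways, listed with earlier results of the data known, were compared in macrophages in the same way. Of 7 tested genes of fatty acid synthesis, 1 was higher under vehicle and 2 under ribavirin, and none was lower, where 15.1% and 13.1% of all genes were higher and 17.5% and 16% lower, so the count under vehicle is at the background. Scd1, the second desaturase of macrophages, was at 1.62, 7.39, 1.49 and 12.3 CPM.

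Of 19 genes of efflux and lipid handling, 6 were higher and 2 lower under vehicle, and 6 and 1 under ribavirin, against the same shares of all genes, which leaves the lower counts under the background. The fatty acid binding protein gene Fabp5 was at 594, 2502, 481 and 1912 CPM, and its relative Fabp4 at 7.85, 30.3, 4.03 and 35.8 CPM. Plin2, which coats lipid droplets, was at 78.5, 179, 94.8 and 171 CPM. Gpnmb, a glycoprotein of lipid-laden macrophages, was at 29.9, 61.9, 28.6 and 80.5 CPM. These 4 genes were higher in both OVA libraries. Cyp27a1, which makes an oxysterol that activates LXR, was at 32.9, 14.9, 35.1 and 19.6 CPM and so lower in both.

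Over 40 points (10 classes in 4 libraries) the synthesis enzymes varied together more than with the efflux genes. The median Pearson's r of log2 levels was 0.58 over the 105 pairs of synthesis enzymes, with a range of −0.39 to 0.88. Over the 60 pairs of a synthesis and an efflux gene it was −0.05, with a range of −0.55 to 0.56. The points share libraries, depth and classes, so these values are a description only.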

How the data were processed

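Single-cell libraries (10x Genomics, 3′ chemistry) were analysed from the UMI count matrices deposited by the authors, which hold whole-number counts per gene and barcode, not normalised. Per the labels and the submitters' processing notes, reads were processed with Cell Ranger 5.0.0 on mm10. Cells with at least 500 UMIs, 200 genes and under 10% mitochondrial UMIs were kept, and doublets were marked with a nearest-neighbour score against simulated doublets and removed (0.522% to 5.23% of barcodes, where 4.12% to 11.3% were expected from loading). Libraries shared 57 to 174 barcodes pairwise. Cell classes required 3 panel UMIs per cell, a panel level above a threshold per 10000 UMIs, and a margin of 2 over the second panel. UMIs were summed by class and library and scaled to CPM, with exact Poisson intervals, and ratios were given exact binomial (Clopper-Pearson) 95% intervals. PCR and sampling of mice are not covered by them. Ratios used genes with at least 50 UMIs over the 2 groups compared, a pseudocount of 1 CPM and centring on the median gene, and the fold of 1.5 marks size only. The procedure was tested on simulated data. Transcript lengths were available for 98.7% of genes.

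The 30 members, the other pathway genes and the comparisons were chosen with earlier results of these data known. All members were named in macrophages. In other classes the members with the largest and smallest ratios were named, and others there were chosen after their values were seen. Further pathway genes were named where they passed 1.5-fold the same way under vehicle and under ribavirin, and the list on cholesterol synthesis and uptake is not reported here. Alternatives were other cell filters, doublets kept, classes from Leiden clusters made without the members, a stricter gate, mean single-cell CPM, other centring, pseudocount and gene minimums. Python 3.11.15, numpy 2.4.6, pandas 2.3.3, scipy 1.17.1, scikit-learn 1.9.0 and leidenalg 0.10.2 were used.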

Additional observations from a re-analysis of the deposited data

Results flagged for a closer look

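Abca1 in monocytes differed with OVA in opposite directions in the 2 pairs of libraries. Relative to the median gene its log2 ratio was 1.10 under vehicle and −0.62 under ribavirin. The ratio of CPM was 2.72 (2.46 to 3.02) under vehicle, from 1638 Vehicle and 457 Vehicle-OVA cells, and 0.83 (0.71 to 0.98) under ribavirin, from 1353 and 356 cells. The difference between the pairs was not tested, since each group is 1 library.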

How the results depend on the processing

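Of 408 values recomputed for medians and counts under 12 alternatives, 377 stayed within the spread set for them and 31 moved. No value past 1.5-fold changed sign, but 3 values near 0 did. Synthesis less efflux with OVA under ribavirin, 0.07, was −0.065 with centring by length and −0.048 with a pseudocount of 5, and the synthesis median of macrophages over T cells turned negative in Vehicle and Ribavirin with no centring, and in Ribavirin also with the stricter gate. With no centring, the synthesis median with OVA was 0.57 (vehicle) and 0.86 (ribavirin), the efflux median 0.83 and 0.80, 1 member was lower under ribavirin, and the synthesis median of macrophages over T cells was −0.24, 0.30, −0.28 and 0.26 (Vehicle, Vehicle-OVA, Ribavirin, Ribavirin-OVA). The 1 member lower with ribavirin alone became 0 with a mitochondrial limit of 5%, doublets kept, the stricter gate, centring by transcript length or a pseudocount of 5. The efflux median with OVA under vehicle was 0.67 with mean single-cell CPM, 0.51 with centring by length and 0.56 with at least 500 UMIs per gene, and with ribavirin on top of OVA it was 0.088 with mean single-cell CPM. In the Arg1/Ccl24 state it was −0.51 with the stricter gate and −0.32 with mean single-cell CPM in Vehicle-OVA, and −0.14 with mean single-cell CPM in Ribavirin-OVA. Synthesis less efflux with OVA under vehicle was −0.077 with classes from clusters. The same difference for macrophages over T cells was −4.07, −3.98, −4.25 and −4.09 with a pseudocount of 5, −4.95 with doublets kept (Vehicle), −5.09 with clusters (Ribavirin), −4.50 with mean single-cell CPM (Ribavirin-OVA) and −4.04 with at least 500 UMIs (Vehicle-OVA), where the synthesis median was 1.10. Fewer members are tested with that minimum, and for the other alternatives the cause was not tested. Of the members past 1.5-fold with OVA, 15 of 15 under vehicle and 18 of 18 under ribavirin kept their direction under all 12 alternatives, and 11 and 14 stayed past the fold. Those that did not were Mvd, Fdps, Fdft1 and Npc1 under vehicle and Fdps, Ebp, Sc5d and Soat1 under ribavirin. No paired analysis was possible because each group is 1 library, and no replicate could be left out. In macrophages depth limits Lss and Hsd17b7 most, and the number of mice limits all comparisons between groups.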

Other observations

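Some genes of lipid handling outside the 30 stood differently with OVA under vehicle and under ribavirin. They were chosen after their values were seen, and no difference was tested. In macrophages Ch25h, which makes the oxysterol 25-hydroxycholesterol, was at 11.2 CPM in Vehicle, 33.4 in Vehicle-OVA, 15.9 in Ribavirin and 13.9 in Ribavirin-OVA. Its ratio of OVA to no OVA was 2.98 (2.62 to 3.39) under vehicle and 0.871 (0.738 to 1.03) under ribavirin. Msr1, a scavenger receptor for modified lipoproteins, was at 114, 292, 114 and 178 CPM in the same order. Cd36, another scavenger receptor, was at 20.8, 23.6, 24.2 and 46.6 CPM. Of the 4 libraries Ch25h and Msr1 were thus highest in Vehicle-OVA and Cd36 in Ribavirin-OVA.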
